A study of Drosophila melanogaster with 2 samples.

Results

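One-directional promoters are those from which protein-coding transcription is annotated on a single strand. Of the 2546 peaks in the authors' optimal set, 747 (29.3%) lay at such promoters, meaning that the summit was within 500 bp of a protein-coding transcript start and that every such start was on one strand. Another 378 peaks (14.8%) had coding starts of both strands within that distance, called divergent promoters here, and 1421 (55.8%) had none. The peaks come from ChIP-seq of whole Drosophila melanogaster larvae, of mixed sex and in the wandering stage of the third instar. All larvae carried an insertion for stable expression of CG32264 with a C-terminal eGFP, and an antibody against GFP was used for the pull-down. The labels give 2 biological replicates, numbered 1 and 3, from a single transgenic line and no other condition. A control library was not analysed here, so no background measured the same way stands beside the values, and whole larvae mix all tissues.

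In an animal promoter, the core region around the transcription start holds short elements such as the TATA box and the initiator, at which the general transcription machinery assembles. Sequence-specific factors such as GAGA factor and Dref bind, among other places, just upstream of the start in Drosophila. Many genes have alternative promoters, so that a start which is internal for one transcript is the first base of another. The summit of a peak is the point that the authors' list gives inside it, and the peak signal is the authors' own measure of its height, with a separate scale in each list.

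The sequences at 7 summits introduce the loci that the results refer to. Each is printed along transcription of its nearest coding gene, from 100 bases before the summit to 100 after it, or to 20 bases past the start where that comes earlier. They were read from the RefSeq sequence of build dm6. The first pair belongs to the peaks of highest signal, Ugalt (a transporter of UDP-galactose) at chrX:2703832-2703981 on the minus strand and CG14100 at chr3L:19590517-19590717 on the minus strand. Capitals mark the letters GGGCGTA on either strand, a string picked after these sequences had been seen.
Ugalt: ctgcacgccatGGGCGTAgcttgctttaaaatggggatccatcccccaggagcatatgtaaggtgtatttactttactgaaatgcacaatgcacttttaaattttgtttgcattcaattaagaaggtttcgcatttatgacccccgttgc
CG14100: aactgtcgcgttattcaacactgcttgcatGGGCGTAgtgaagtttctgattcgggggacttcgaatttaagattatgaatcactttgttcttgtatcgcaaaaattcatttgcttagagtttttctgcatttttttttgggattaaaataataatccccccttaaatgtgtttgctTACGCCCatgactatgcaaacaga

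The next 2 show the GAGA element (GAGAGAG on either strand), and the last 3 the Dref element (TATCGATA), as the elements whose odds ratios between promoter classes were farthest from 1. They were taken in order of signal from the upstream peaks with the element. Peaks on 1 chromosome arm, windows with over 30 untranslated bases and 1 peak that is not reported here were passed over, and some of these had higher signals. Here capitals mark matches to the GAGA element, the Dref element, the TATA box (TATAAA) and the initiator (TCAGTC or TCAGTT). The GAGA windows are those of CG34056 at chr3L:895681-895881 and Hexo2 (a hexosaminidase) at chrX:8709323-8709523, both on the plus strand. The Dref windows are those of CG11151 at chrX:13739459-13739659 and eEF1gamma (a translation elongation factor subunit) at chr3R:29219958-29220158, both on the plus strand, and Jwa at chr2L:18705784-18705984 on the minus strand.
CG34056: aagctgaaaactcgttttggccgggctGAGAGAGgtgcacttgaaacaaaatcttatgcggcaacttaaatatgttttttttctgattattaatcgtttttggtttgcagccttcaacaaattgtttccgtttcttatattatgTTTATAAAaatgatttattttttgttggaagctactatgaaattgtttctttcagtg
Hexo2: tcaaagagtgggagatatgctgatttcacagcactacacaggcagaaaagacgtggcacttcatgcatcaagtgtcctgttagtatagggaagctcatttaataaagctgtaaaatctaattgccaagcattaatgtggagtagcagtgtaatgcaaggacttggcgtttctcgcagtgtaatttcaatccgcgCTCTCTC
CG11151: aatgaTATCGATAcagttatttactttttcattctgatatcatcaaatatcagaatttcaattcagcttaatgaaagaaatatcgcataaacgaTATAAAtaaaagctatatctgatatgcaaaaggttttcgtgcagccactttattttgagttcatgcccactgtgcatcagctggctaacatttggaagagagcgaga
eEF1gamma: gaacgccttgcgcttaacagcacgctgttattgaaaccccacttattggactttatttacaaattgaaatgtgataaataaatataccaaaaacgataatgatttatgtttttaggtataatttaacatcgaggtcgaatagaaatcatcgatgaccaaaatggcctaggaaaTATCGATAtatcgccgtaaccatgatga
Jwa: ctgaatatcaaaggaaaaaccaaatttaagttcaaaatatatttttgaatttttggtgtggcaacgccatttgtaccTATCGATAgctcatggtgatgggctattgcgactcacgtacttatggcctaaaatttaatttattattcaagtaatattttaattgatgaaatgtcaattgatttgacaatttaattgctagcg

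The position of a summit was measured from the nearest coding start along transcription, negative upstream. Summits lay upstream at 614 peaks and downstream at 132, and 1 summit lay on the start itself. Upstream summits made up 82.3% (exact 95% interval 79.4 to 85.0%), against an equal share by an exact binomial test (two-sided p = 4.28e-75). The test and the interval run over peaks, not over larvae, and cover counting error only. The median position was 140 bp upstream, with an interquartile range from -239 to -43 bp, and 499 peaks (66.8%) lay between -300 and 0 bp. At 620 of the 747 peaks the region had the same width of 376 bp and the summit stood at its middle, so that position is the centre of a fixed region. The other 127 peaks, of higher signal (median 222 against 83.8), had 87.4% of summits upstream (111 of 127) and a median of -171 bp, against 81.3% (503 of 619) and -124 bp at the fixed width.

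The same side prevailed when each replicate was taken alone, with the 2546 peaks of highest signal in its own list. Replicate 1 had 744 one-directional peaks with 83.6% upstream and a median of -141.5 bp. Replicate 3 had 857 with 74.8% upstream and a median of -105 bp, so its summits were nearer to the start and more often past it. The commonest bin of the optimal set was 200 to 100 bp upstream, with 196 summits, followed by the last 100 bp before the start with 167. From the start onward, counts per 100 bp were 50 (with the summit on the start itself), 21, 10, 23 and 29, so downstream summits were fewest 200 to 300 bp into the transcript.

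**Figure D1:**
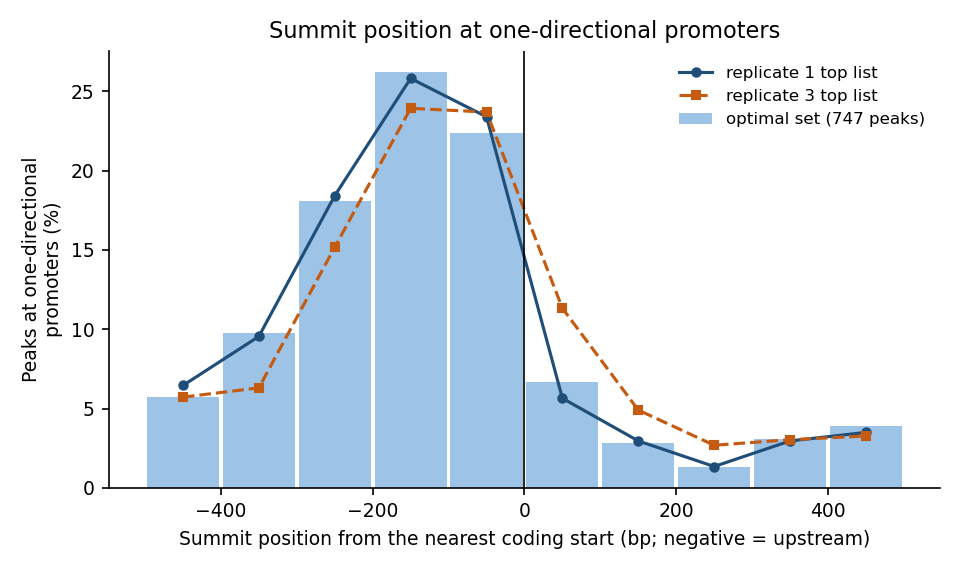
Share of one-directional peaks (%) in bins of 100 bp by summit position from the nearest coding start (bp, negative is upstream), for the optimal set (bars) and for the top lists of replicate 1 (circles) and replicate 3 (squares). All 3 lists are highest in the last 200 bp before the start, and replicate 3 holds a larger share than replicate 1 just past it.

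Each peak of the optimal set was also followed into the full list of 30000 peaks of each replicate. A partner overlapping by at least 1 bp was present in replicate 1 for 739 of the 747 peaks, in replicate 3 for 745, and in both for 737. For the same peaks, the median position was -148 bp by the summits of replicate 1 and -132 bp by those of replicate 3. The replicate summits of a peak lay a median of 40 bp apart, and the side of the start was the same in all 3 lists for 674 of the 737 (91.5%). By both replicates 566 summits were upstream and 113 downstream, while the replicates placed 58 on different sides. Neighbouring peaks can share a partner, which was the case for 34 peaks in replicate 1 and 36 in replicate 3.

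The annotation around the summits follows in large part from their position. Upstream of a gene's first start a summit is outside its coding transcripts, and upstream of a later start it is mostly inside them. Intergenic DNA held 307 of the 747 summits (41.1%), introns 292 (39.1%) and 5′ untranslated regions 107 (14.3%). Exons of non-coding genes held 24, 3′ untranslated regions 16 and a coding exon 1. Upstream of a gene's first or sole start, 307 of 377 summits (81.4%) were intergenic. Upstream of a later start, 203 of 237 (85.7%) were in introns, 181 of them in introns of the same gene alone. Of the 49 summits less than 100 bp downstream of a start, 47 were in 5′ untranslated exons. Of the 52 summits 300 to 500 bp downstream, 41 (78.8%) were in introns.

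Sequence past the start was compared without a test. Over the 500 bp downstream of its nearest start, the median member had 0% coding sequence and the mean was 18.5%. Among all 19253 coding starts, divergent ones included, the median was 41.4% and the mean 39.9%. The members are one-directional and more often at genes with several start groups, so the sets compared are unlike. No coding base followed within that distance at 398 of the 747 starts. Among the peaks at such starts that were upstream or downstream, 318 of 397 (80.1%) lay upstream. Where only 1 coding start lay in the window, 516 of 605 (85.3%) were upstream.

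Signals in the optimal set ran from 61.3 to 956 among the one-directional peaks, with a median of 91.5. The median was 88.3 at divergent promoters and 89.9 at peaks without a coding start nearby. The strongest 25% of the optimal set by signal was taken as a class, and 212 of the 747 one-directional peaks (28.4%, exact interval 25.2 to 31.8%) belonged to it, against 25% of all peaks by construction. The shares were 23.3% (88 of 378) at divergent promoters and 23.6% (336 of 1421) without a coding start. Neither difference passed a threshold of 0.05 by two-sided Fisher's exact tests, adjusted by Benjamini and Hochberg's method over 7 tests on peaks and starts. Fisher's odds ratio was 1.31 against divergent promoters (adjusted p = 0.174) and 1.28 against peaks without a coding start (adjusted p = 0.0588).

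In the top list of replicate 3 alone these odds ratios were 0.911 and 0.973, so the direction was opposite there. The latter passed the threshold by Fisher's test with a window of 1000 bp (1.33, adjusted p = 0.0391) and with strands taken from starts of all transcripts (1.32, adjusted p = 0.0288). Presence in the top lists of both replicates was 61.6% over all peaks and 60.8% (454 of 747) at one-directional promoters. By the same exact tests, it was 56.1% at divergent promoters (odds ratio 1.21, adjusted p = 0.245) and 63.5% without a coding start (odds ratio 0.892, adjusted p = 0.315). The latter comparison passed the exact test with a window of 250 bp (odds ratio 0.719, adjusted p = 0.00421). One-directional peaks were found in the top list of replicate 1 for 83.3% and of replicate 3 for 75.1%, and 18 were in neither.

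Median signals by position among the one-directional peaks are given without a test. The median signal was 109 for summits 200 to 100 bp upstream, 98.3 from 300 to 200 bp, 84.0 in the last 100 bp before the start and 81.7 in the first 100 bp after it. Upstream peaks had a median of 94.0 and downstream peaks of 81.4. The share in the strongest 25% was 29.2% upstream and 25% downstream, a difference that did not pass (Fisher's exact test, odds ratio 1.23, adjusted p = 0.461). In the top list of replicate 3 alone it did pass the exact test (odds ratio 2.12, adjusted p = 0.000946).

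Upstream summits were more often in the top lists of both replicates, at 387 of 614 (63.0%), than downstream summits, at 66 of 132 (50%). Fisher's exact test gave an odds ratio of 1.70 (adjusted p = 0.0420). The call from the exact test was lost among the stronger 50% of peaks (odds ratio 1.97, adjusted p = 0.544) and with windows of 250 bp (1.41, adjusted p = 0.247) or 1000 bp (1.42, adjusted p = 0.0794). The top list of replicate 1 held 85.2% of upstream and 74.2% of downstream peaks, and that of replicate 3 held 75.2 and 74.2%. Peaks in both lists count in each, and the gap was in replicate 1. Counting only peaks in both top lists, 387 of 453 (85.4%) were upstream.

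**Figure D2:**
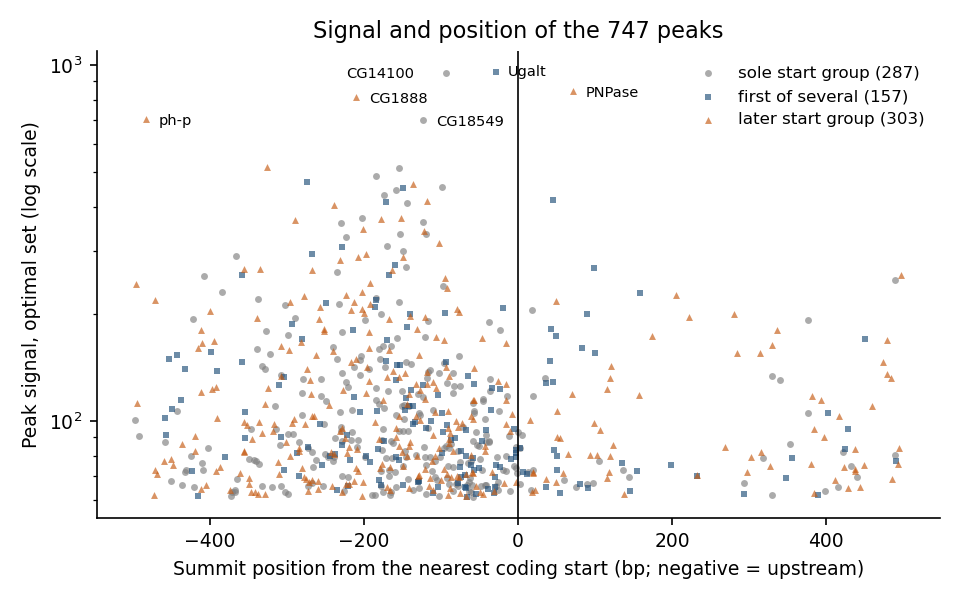
Peak signal in the optimal set (log scale) against summit position from the nearest coding start (bp, negative is upstream), 1 point for each of the 747 peaks, by the kind of start group. The peaks above 400 lie mostly upstream, and PNPase, at a later start, stands out among those past the start.

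Of the 12 peaks of highest signal, 11 lay upstream. The peak of Ugalt (chrX:2703719-2704051) had its summit 29 bp upstream of the first of 2 start groups, with a signal of 956 in the optimal set, 629 in replicate 1 and 334.5 in replicate 3. The peak of CG14100 (chr3L:19590456-19590783), 93 bp upstream of its sole start group, had 947 in the optimal set, 664 in replicate 1 and 283 in replicate 3. In replicate 1 the latter ranked 1 and Ugalt 2, and in replicate 3 Ugalt ranked 2 and CG14100 5, so both stood near the top of each list. CG18549 (chr3R:12449018-12449322) had a summit at -123 bp and signals of 701, 393 and 303 in the optimal set, replicate 1 and replicate 3.

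PNPase, a polynucleotide phosphorylase, was the exception on position, with its summit 72 bp downstream of its second of 3 start groups, in a 5′ untranslated region. Its signals were 845 in the optimal set, 575 in replicate 1 and 277 in replicate 3. CG1888 had its summit 210 bp upstream of the last of 2 start groups and signals of 813, 601 and 244 in the same order. The peak of ph-p, which encodes the Polycomb group protein Polyhomeotic-proximal, lay in an intron 483 bp upstream of the second of 3 start groups, with 705, 458 and 279. The gene has a close copy beside it, so the reads of such regions are uncertain. A La-related RNA-binding protein is encoded by larp, whose intronic summit lay 326 bp upstream of the last of 5 start groups, with 517, 335 and 187.

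Hsp27, a small heat shock protein gene, had a summit at -155 bp and signals of 512 in the optimal set, 300 in replicate 1 and 210 in replicate 3. Gapdh2, which encodes a glycolytic dehydrogenase, had a summit at -184 bp with 488, 221 and 266. It was the member of these 12 whose signal was higher in replicate 3 than in replicate 1, although the scales of the lists are not shared. The summit of Sox14, an ecdysone-induced transcription factor gene, lay at -274 bp, with 469 in the optimal set, 307 in replicate 1 and 165 in replicate 3. The summit of eIF6, a gene for a factor of the large ribosomal subunit, lay at -99 bp with a signal of 455, inside an exon of a non-coding gene.

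The other downstream peaks were weaker than PNPase. After GstE13, a glutathione S-transferase gene with a summit at 45 bp and a signal of 419 in the optimal set, came those 50 bp or more downstream. CG10413 (summit at 99 bp, in the 5′ untranslated region) had 269.8 in the optimal set, 174 in replicate 1 and 96.3 in replicate 3. The peak of aru, which encodes an Eps8-like adaptor, lay 498 bp downstream, in an intron, with 257, 150 and 101 in the same order. CG31612 had a summit at 489 bp, also in an intron, with a signal of 249.6, and CG12316 at 158 bp with 229. The aru peak was also the one nearest to the 500 bp limit from inside, followed by aus (-497 bp, signal 101) and CG32512 (-496 bp, 243). Just outside it lay nw at -502 bp (79.8), and CG15172 (66.9) and mamo (95.9), both at -506 bp.

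At the other end of the signal range, the lowest peaks were those of Poxm, a Pax family gene, at -373 bp, Sin3A, a corepressor gene, at -66 bp and Sdhaf3 at -58 bp, each with 61.3 to 61.4 in the optimal set. Of the 8 peaks without a partner in replicate 1, RhoGAP93B (-141 bp) had the highest signal, 110 in the optimal set and 34.6 in replicate 3. The others named by the same rule were deltaCOP, sqh (the myosin regulatory light chain gene), CG5001 and CG3860, with 74.1 to 93.8 in the optimal set. CG32264 itself, the gene of the tagged protein, had an intronic peak 108 bp upstream of the fifth of its 7 start groups. Its signal was 79.9 in the optimal set, 44.0 in replicate 1 (rank 1858) and 43.3 in replicate 3 (rank 1102). All larvae carried the insertion, and whether it bears on that peak was not tested.

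**Figure D3:**
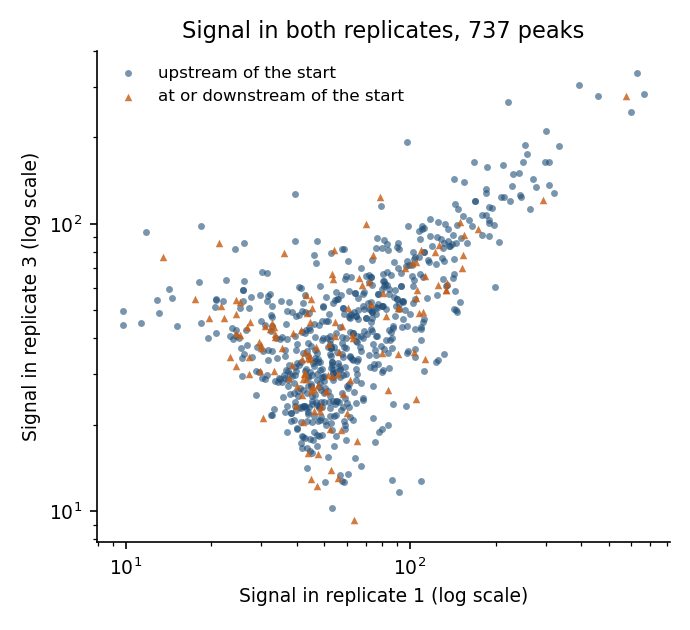
Signal in replicate 3 against signal in replicate 1 (both log scales, each on its own list's scale) for the 737 one-directional peaks with a partner in both full lists. Peaks at or past the start (triangles) lie among the upstream peaks (circles), and the highest peaks are high in both replicates.

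Among the 737 peaks with partners in both lists, Spearman's rho of the 2 signals was 0.486, given as a description across peaks. Members had signals from 9.76 to 664 in replicate 1 (median 56.6) and from 9.33 to 334.5 in replicate 3 (median 41.6). The lowest values of each replicate therefore lay well below the lowest of the optimal set, on scales that are not shared.

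Alternative starts were counted as start groups, coding starts of a gene merged where gaps were at most 100 bp and ordered along transcription. Of the 747 peaks, 287 (38.4%) were nearest to a gene with 1 start group and 460 (61.6%) to a gene with 2 or more. Of those 460, 157 (34.1%) were nearest the first group and 303 (65.9%) a later one, with 168 at the second group. Genes with several groups made up 397 of the 679 genes nearest to a peak (58.5%) and 3293 of all 13945 coding genes (23.6%). The genes with peaks were also longer, with a median span of 6377 bp against 2166 bp over all coding genes. Within genes of several groups the medians were 11051 and 5576 bp, and with 1 group 2545 and 1757 bp.

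Counted per start group, first groups were tested against all later ones together. Over start groups of genes with several groups and no coding start of the other strand within 500 bp, 6.60% (441 of 6685) had a one-directional summit. First groups had one in 152 of 2298 cases (6.61%) and later groups in 289 of 4387 (6.59%), with an odds ratio of 1.00 (Fisher's exact test, adjusted p = 0.959). Starts of a gene are not independent of each other. Later groups outnumbered first ones 4387 to 2298. The odds ratio was 0.853 when groups were separated only at gaps over 500 bp, 0.984 with a window of 1000 bp and 0.910 with the stronger 50% of peaks, and none of these passed.

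In genes with 3 or more groups, a summit was at 7.72% of first groups (interval 5.87 to 9.94%), 9.70% of middle groups (8.28 to 11.3%) and 6.24% of last groups (4.78 to 7.97%). The order was the same in replicate 1, with 7.58, 8.62 and 5.60%, and in replicate 3, with 10.3, 11.7 and 7.51%. In genes with 2 groups the first had a summit in 6.12% and the last in 4.16%. Sole start groups had one in 3.57% (280 of 7843). These shares are given without a test.

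**Figure D4:**
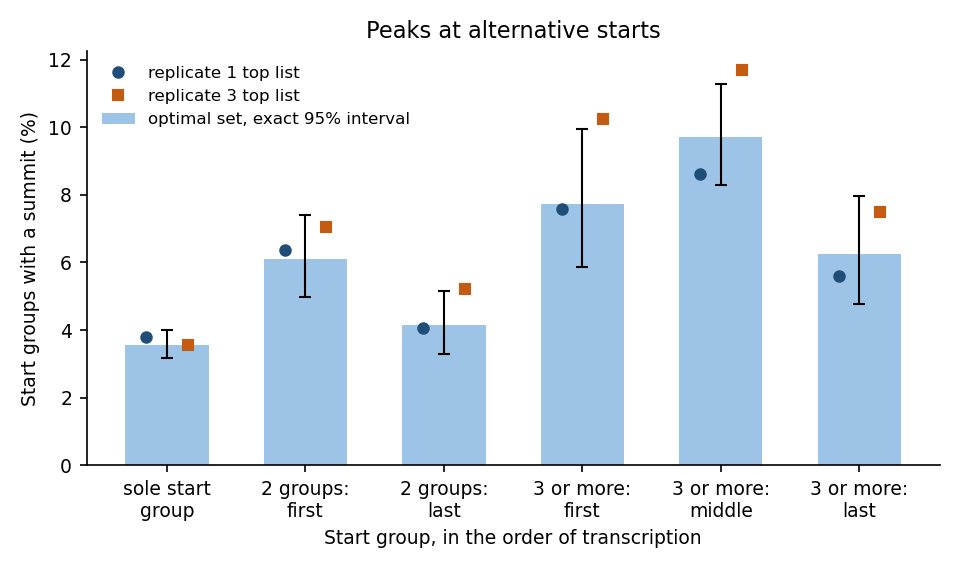
Share of start groups (%) with a one-directional summit, by the number of groups in the gene and the group's place in the order of transcription. Bars with exact 95% intervals are the optimal set, and points the top lists of the replicates. Middle groups are highest at 9.70% and sole groups lowest at 3.57% in the optimal set.

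The side of the start also varied with the kind of group. Summits were upstream at 255 of 287 peaks of sole groups (88.9%, median -148 bp), at 122 of 157 of first groups (77.7%, median -104 bp) and at 237 of 303 of later groups (78.2%, median -142 bp). Their median signals were 87.7, 91.3 and 95.9. The highest peaks nearest a first group were Ugalt, Sox14, CG13921 (-150 bp, signal 452), GstE13 and nebu (-172 bp, 413). Among the highest nearest a later group were PNPase, CG1888, ph-p and larp, each described above.

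Of the 397 genes with several start groups that were nearest to a peak, 42 had summits nearest to more than 1 group. Of these, 39 had them at 2 groups, 2 at 3 and 1 at 4. Each peak was given to its nearest start within 500 bp, so neighbouring peaks between 2 starts also count here. In CG6785, peaks given to the first and second groups had the same partner signals, 71.6 in replicate 1 and 63.0 in replicate 3. In ph-p a second peak, 451 bp downstream of the first group, had 170.0 in the optimal set, 69.9 in replicate 1 and 100 in replicate 3, below the values at the second group. MFS10, a transporter of the major facilitator superfamily, had 373 at the third group (-152 bp) and 63.0 at the second (-347 bp). Ptpmeg2, a protein tyrosine phosphatase gene with 6 groups, had 205 at the second, 370 at the fourth and 146 at the fifth, with summits between -217 and -178 bp. Rtnl1, which encodes the reticulon of the endoplasmic reticulum, had peaks at 4 of its 7 groups. Its highest, at the sixth group, had 368 in the optimal set, 246 in replicate 1 and 124 in replicate 3, and its other peaks had 97.6 to 157 in the optimal set. These genes were named by their highest signal. Over all 42, the highest group had a median of 1.75 times the signal of the next, at least 2 times in 15 genes and under 1.5 times in 15.

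Across all coding genes, 697 of 13945 (5%) had a one-directional summit within 500 bp of a start. Cytoplasmic ribosomal protein genes had one in 16 of 92 cases (17.4%), with 21 more at divergent promoters, where 770 of all coding genes (5.52%) had a summit. Their summits were close to the start, with a median position of -26.5 bp and 13 of 16 within 50 bp, against 94 of all 747 (12.6%). RpL23A (-102 bp) had the highest signal of the group, 137 in the optimal set, 87.0 in replicate 1 and 43.3 in replicate 3. RpL11 (-37 bp) had 131, 80.4 and 51.7, RpS28b (-37 bp) 122, 86.2 and 37.0, and RpL30 (19 bp) 117, 53.6 and 64.2, in the same order. Only 2 of the 16 were in the strongest 25%, and 12 of 16 were in both top lists. One of them, RpS14b, has a near-identical neighbouring copy, so its reads are uncertain.

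Mitochondrial ribosomal protein genes had a one-directional summit in 1 of 73 cases and a divergent one in 13. That one was mRpL41, at -159 bp with 446 in the optimal set, 308 in replicate 1 and 137 in replicate 3. Translation factors had 5 of 52, led by eIF6 and including eEF1gamma (-114 bp, 139), eIF3c (-75 bp, 126) and eEF2 (3 bp, 83.7). Rab GTPases, regulators of vesicle traffic, had 2 of 36, Rab5 (-246 bp, 111) and Rab1 (-26 bp, 64.2). Proteasome subunits had 0 of 48 and V-ATPase subunits 0 of 33, with 4 and 5 at divergent promoters. Chemoreceptor genes had 0 of 179, and none at divergent promoters either.

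Heat shock genes had 7 of 25 (28.0%). Besides Hsp27, Hsp26 (-121 bp) had 172 in the optimal set, 90 in replicate 1 and 82.8 in replicate 3, and Hsp83 (-96 bp) had 169, 76.8 and 89.4. The constitutive chaperone gene Hsc70-4 had its summit 449 bp downstream, in an intron, with 75.1. The list of ecdysone and metamorphosis regulators had 7 of 26 (26.9%, interval 11.6 to 47.8%) with 9 peaks, and 3 at divergent promoters. Ecdysone is the steroid that drives moulting and pupariation. The list was made by name, and a response to the hormone was not required of its members. After Sox14 came hid, a cell death gene, at -338 bp with 219 in the optimal set, 125 in replicate 1 and 102 in replicate 3. Eip75B, a nuclear receptor gene, had summits 50 and 37 bp downstream of the fifth and the seventh of its 7 groups, with 217 and 68.8, and Hnf4 had one at -345 bp with 89.2. Homeodomain and patterning regulators had 3 of 42, C15 (-299 bp, 92.1), Dll (-162 bp, 86.8) and sd (-310 bp, 71.0). The lists are small, and their counts are descriptions with no test. Genes with several start groups made up 58.5% of genes nearest to a peak and 23.6% of all coding genes. The lists were not matched to all coding genes in this, so the 5% share is not a like background.

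The base composition around the summits was counted in windows reaching 100 bases to each side. One-directional peaks had 37.9 ± 7.41% G or C (SD over 747 windows), divergent peaks 35.3 ± 5.97% (378 windows) and peaks without a coding start 36.8 ± 5.93% (1421 windows). In these windows 8 motifs were searched on both strands, and no motif's letters contain those of another. Besides those spelled out above they were the M1BP element GGTCACACT, the E-box CAGCTG, the GATA sites AGATAA or TGATAA and the E-box variant CATGTG. A match is a string of letters and not a bound site, and 182 of the 747 windows held none of the 8. The motifs were chosen with earlier results of these data known, so their p-values are not independent support for a class difference. The replicate lists went into the optimal set, so a pass in each replicate alone does not remove this limit.

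The GAGA element, the recognition sequence of GAGA factor, was in 71 of 747 one-directional windows (9.50%) and 5 of 378 divergent ones (1.32%). By Fisher's exact test this was an odds ratio of 7.84 (p adjusted over the 8 motifs = 9.41e-08), which passed in replicate 1 alone (6.34) and in replicate 3 alone (6.99). The shares themselves were 7.26 and 1.22% in replicate 1 and 17.2 and 2.88% in replicate 3, so that without replicate 1 the one-directional share was higher by over 1.5 times. It was in 5.42% of windows without a coding start. Promoters at large show the same contrast. In windows of the same length centred 140 bp upstream of every coding start, the GAGA element was in 7.95% of 14137 one-directional windows and 2.42% of 5116 divergent ones.

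The Dref element, bound by a factor of genes for growth and DNA replication, went the other way, at 31 of 747 (4.15%) against 40 of 378 (10.6%). Fisher's odds ratio was 0.366 (adjusted p = 0.000293), and among all coding starts the shares were 2.74 and 7.88%. In replicate 1 alone the shares were 5.38 and 10.7% (odds ratio 0.473), and in replicate 3 alone 2.33 and 9.71% (0.222), both passing. Without a coding start 0.281% of windows had it. The call of the exact test was lost with the stronger 50% of peaks (odds ratio 0.420, adjusted p = 0.0741). Within the one-directional class, GAGA matches were in 9.61% of upstream and 9.09% of downstream windows, and Dref matches in 4.23 and 3.79%. Dref matches sat at a median of -63 bp from the start and GAGA matches at -110 bp, a median of 48 and 50 bp from the summit. Matches were searched only up to 100 bp from the summit, and the other motifs had medians from 39 bp (TATA box) to 51 bp (initiator). These distances therefore do not show Dref or GAGA matches centred on the summit. The ribosomal protein windows held Dref matches in 4 of 16 cases and no GAGA match.

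Of the other elements, 3 also passed between the peak classes. The E-box was in 10.2% of one-directional and 17.7% of divergent windows (Fisher's exact test, odds ratio 0.526, adjusted p = 0.00117), against 9.50 and 12.4% of all promoter windows. The TATA box was in 31.6 and 39.2% (exact test, 0.718, adjusted p = 0.0220), against 28.4 and 39.3% of all promoter windows. The initiator was in 18.3 and 12.4% (exact test, 1.58, adjusted p = 0.0220), against 18.3 and 16.9%. Windows without a coding start held the E-box in 7.18%, the TATA box in 30.3% and the initiator in 17.3%, near the one-directional shares of the last 2. In one-directional windows TATA box matches sat at a median of -168 bp from the start (interquartile range -255.5 to -72 bp). Initiator matches sat at a median of -112 bp. Both were searched only up to 100 bp from summits whose own median was -140 bp. These positions therefore follow the summits in large part and do not show where such strings lie in the promoter. The exact test's call for the E-box was lost with a window of 250 bp (0.832, adjusted p = 0.574), and those of the TATA box and the initiator among peaks of both top lists (0.831 and 1.38, adjusted p = 0.392 and 0.330). By the exact test the initiator call was also lost with the stronger 50% of peaks (1.69, adjusted p = 0.0802), a window of 1000 bp (1.27, adjusted p = 0.237) and starts of all transcripts (1.43, adjusted p = 0.0722). The M1BP element, at 1.20 and 1.85%, the GATA site, at 28.4 and 27.8%, and the E-box variant, at 10.4 and 7.41%, did not pass. The M1BP element passed in each replicate alone, at odds ratios of 0.297 in replicate 1 and 0.317 in replicate 3.

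**Figure D5:**
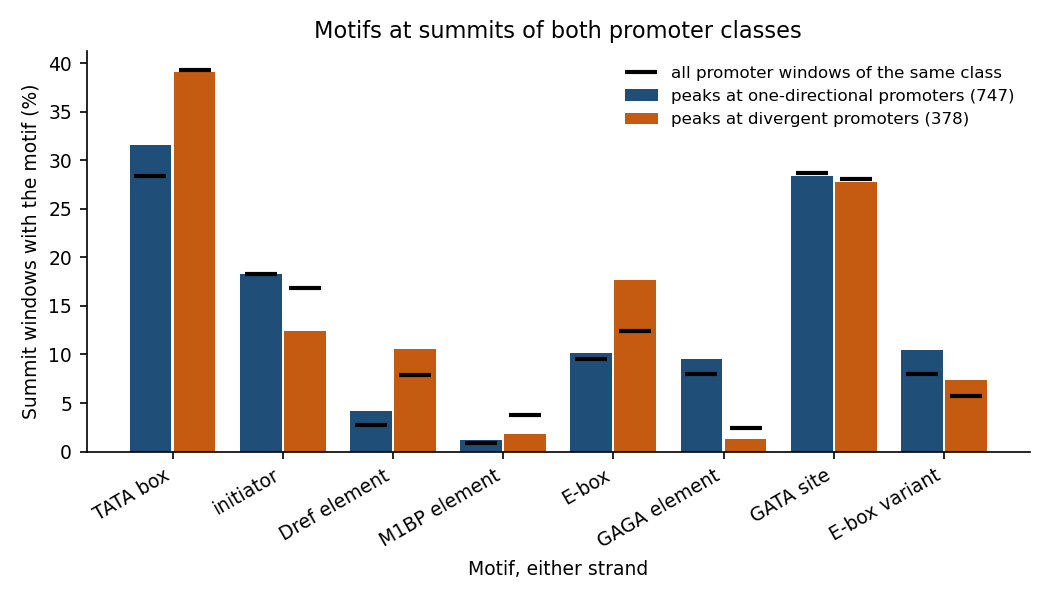
Share of summit windows (%) with each of 8 motifs at one-directional (blue, 747) and divergent (orange, 378) promoters. Black marks give the share in windows of all coding starts of the same class, centred 140 bp upstream. For the GAGA and Dref elements the black marks differ between classes in the same direction as the bars.

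The string GGGCGTA, marked in the sequences of Ugalt and CG14100, was in 4 of the 12 highest peaks, the other 2 being CG1888 and Hsp27. It was in 12 of the 212 one-directional windows of the strongest 25% (5.66%) and in 4 of the other 535 (0.748%). In divergent peaks, which were not looked at when it was picked, the shares were 7.95% (7 of 88) and 2.76% (8 of 290). Without a coding start they were 1.79% (6 of 336) and 0.829% (9 of 1085). Among all one-directional coding starts 0.934% of windows held it, and among divergent ones 1.19%. It was chosen after its sequences were seen, so no test is given.

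By chromosome arm, 2L held 132 of the one-directional peaks, 2R 155, 3L 150, 3R 175 and X 131, and the small chromosome 4 held 4. A second gene shared the window at 18 peaks, on the same strand, and 141 peaks had a second coding start in the window. In 22 of the 725 start groups with a summit there were 2 or more summits. The 747 peaks are therefore not fully independent of each other.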

How the data were processed

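Chromatin immunoprecipitated with an antibody against GFP, from fragments of 200 to 800 bp per the labels, was sequenced in 2 biological replicates. The authors deposited peak lists: a list of 30000 peaks for each replicate made as input to the irreproducible discovery rate step, and its optimal set of 2546 peaks. The peak signal is as deposited by the authors. Its scale is that of its list, so it served for levels, ranks and filters inside 1 list. The deposited −log10 q values (2.66 to 3.63 for optimal peaks) entered no test. Aligner and peak caller: not given in the sources used here. In build dm6, 620 of the 747 members have the commonest width of 376 bp with the summit at the middle. Read depth is unknown from peak lists, so the absence of a peak does not show the absence of the protein.

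Summits were set against protein-coding starts of Ensembl release 115 (BDGP6), and sequence was read from RefSeq. Python 3.11.15, numpy 2.4.6, scipy 1.17.1 and matplotlib 3.10.9 were used. Two-sided exact binomial and Fisher tests were run, the latter with p-values adjusted by Benjamini and Hochberg's method, and intervals are Clopper-Pearson 95%. The position step was tested on simulated peaks at isolated starts, with no other coding start nearby. The choice among several starts, the divergent class and the start groups were not tested that way. Members, gene lists and motifs were chosen with earlier results of these data known. The genes named are the 12 of highest signal, the highest upstream, downstream and at first or later starts, and genes with peaks nearest several starts. Those at the limits, up to 4 of each list and CG32264 were also named. Alternatives were other windows, gaps, overlaps, strengths, transcripts and each replicate alone. One item that these rules name is not reported here.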

Additional observations from a re-analysis of the deposited data

How the results depend on the processing

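Of 144 recomputed values, 104 kept their direction and side of the threshold, or, with no test, moved by less than the SD between replicates, or, as counts, stayed within 1.5 times. The upstream share passed under each of its alternatives, from 72.6% (window of 1000 bp) to 87.4% (peaks of other than the fixed width, an alternative added after seeing the data, whose median position was -171 bp). The odds ratio of the GAGA element also passed under each of its own. The causes of the changes below were not tested.

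With each replicate's top list alone, the median position ran from -141.5 to -105 bp and the share of multi-start peaks nearest the first start group from 34.8 to 36.9%. Odds ratios of the strongest 25% ran from 0.911 to 1.23 against divergent promoters, from 0.973 to 1.27 against peaks without a coding start and from 1.63 to 2.12 for upstream against downstream. Those of the M1BP element ran from 0.297 to 0.317 and of the GATA site from 0.814 to 0.982. The median signal was not recomputed there, since each list has its own scale. The SD set against its changes was 1.05, which is not the SD of the replicates' own medians (55.2 in replicate 1 and 40.7 in replicate 3).

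With the stronger 50% of peaks there were 383 one-directional peaks, a median signal of 136 and 32.5% at first groups. Odds ratios were then 0.910 for first against later groups and 0.0927 for the M1BP element, which gained a call. Calls were lost for both top lists upstream against downstream (1.97), the initiator (1.69) and the Dref element (0.420). With a window of 250 bp the median position was -101 bp, the median signal 89.4 and the first-group share 40.6%. The odds ratios there were 0.896 (strongest 25%) and 0.774 (both lists) against divergent promoters, and 0.719 (both lists) against peaks without a coding start, which passed. They were 1.41 for both lists upstream against downstream, 0.832 for the E-box, both without a call, and 0.915 for the GATA site. With 1000 bp the median signal was 89.8, and odds ratios were 0.984 (first groups), 1.33 (strongest 25% without a coding start), 1.42 (both lists, upstream) and 1.27 (initiator), the last 2 without a call. Starts of all transcripts gave a median signal of 92.5 and odds ratios of 1.32 for the strongest 25% without a coding start and 1.43 for the initiator, which lost its call. Gaps of 500 bp between groups gave 30.7% at first groups and an odds ratio of 0.853. An alternative chosen after seeing the data kept the peaks in the top list of each replicate, where 3 motifs passed in place of 5, with 0.831 for the TATA box and 1.38 for the initiator.

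No paired analysis was possible because there is 1 group. With 2 replicates and unknown depth, small differences between peak classes cannot be resolved.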
